A study of Mus musculus with 18 samples.

Results

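Cluster 1 of the corpus dataset held 458 parietal cells whose UMIs (unique molecular identifiers, each counting 1 captured RNA molecule) fell to an unusual extent on mitochondrial genes. Its members were the cells that the authors' clustering had placed in cluster 1, which were 458 of the 3993 corpus cells and of the 4484 cells of the series. They came from both pools of mice, 281 from pool K and 177 from pool T, and from all 12 plates, with 18 to 60 cells on a plate. They were set against the 12 non-parietal epithelial clusters of the same plates (3124 cells of the mature pit, pre-pit, isthmus, neck and chief types) and against cluster 8, the other parietal cluster (244 cells).

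Single cells of the stomach of untreated adult male C57BL/6J mice of wild-type (WT) genotype were measured by Quartz-Seq2, a method that sorts 1 cell into each well of a 384-well plate. Cells of 3 mice were pooled in each of 2 suspensions, K and T, each on 6 plates and, by the study's account, each prepared by a different operator, so a difference between mice, operator and plates of a pool cannot be told apart. The sorter gate removed dead cells by ToPro3 and debris by Hoechst33342. A second dataset of corpus and antrum cells, from pools 1 and 2 on 6 plates, sorted after a dead-cell stain (named ToPro3 in the labels and PI in the study's methods), holds a parietal cluster of 57 cells and is used here only where named.

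Parietal cells lie in the glands of the gastric corpus and secrete hydrochloric acid. Their apical H+/K+-ATPase exchanges protons for potassium at the cost of ATP, potassium is recycled through apical potassium channels, chloride leaves through apical channels and exchangers, and bicarbonate leaves at the opposite side through an anion exchanger. The ATP comes mainly from mitochondria, which fill much of the cell, and estrogen-related receptors with their PGC-1 coactivators are known regulators of the nuclear genes of oxidative metabolism.

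The 12 corpus plates held from 10540256 to 12850942 UMIs each, and every kept cell had at least 2501 detected genes. The 458 cells had a median of 45390.5 UMIs and 6437.5 detected genes, against medians of 20520 to 50083 UMIs and 5057 to 7869 genes in the 12 non-parietal clusters. No doublet caller was run, because cells were sorted singly. All plates share the same set of 384 cell barcodes by design, and 0 cells had identical counts. With 2 pools, values are given per pool and as the mean ± SD over pools (n = 2). Contrasts between clusters carry no p-value here, since the clustering used the genes that are compared.

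The markers given for the cluster were all abundant in it. *Atp4b*, the beta subunit of the H+/K+-ATPase (GRCm39, chr8:13436205-13446825, minus strand, protein-coding), had a UMI in 458 of 458 cells, with a median of 244 per 10000 nuclear UMIs (UMIs on genes outside the mitochondrial genome). *Kcnq1*, the pore subunit of an apical potassium channel (GRCm39, chr7:142660099-142980788, plus strand), had a UMI in 454 cells (99.1%, Wilson 95% interval 97.8 to 99.7%). *Esrrg*, the estrogen-related receptor gamma (chr1:187340988-187947082, plus strand), had a UMI in all 458. Such shares alone separate little here, because 84.8% of non-parietal cells also had an *Atp4b* UMI, at 1.2 per 10000 against 246 in cluster 1. The lowest cell of cluster 1 was at 1.82 per 10000 and the highest non-parietal cell at 87.5. None of the 3124 non-parietal cells reached 153, the 5th percentile of cluster 1. *Slc26a7* had a UMI in 92.6% of cluster 1 cells and 2.85% of non-parietal cells, at median depths of 45390.5 and 29256.5 UMIs. Intervals cover counting error only.

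Most marker lists of other cell types were low in cluster 1 as a whole. The summed pit markers (*Gkn1*, *Gkn2*, *Muc5ac*, *Tff1*) were at 1749.4 and 1047.4 CPM in pools K and T (UMIs per 1000000, here of nuclear UMIs), within the range of 903 to 156135.7 over the 12 clusters. Neck markers were at 457 and 370 (range 1873.4 to 24046.1) and chief markers at 119 and 149 (range 173 to 40198.3). Stromal, immune and erythroid markers were each at or below 0.302 CPM. The endocrine lists were not lower: D and X/A cell markers were at 137 CPM in K and 55.7 in T, against 35.8 and 38.3 in cluster 8 and a range of 29.3 to 254 over the 12 clusters. *Ghrl*, the ghrelin gene, was called above cluster 8 (1.73), though not by DESeq2, and was 0.44, not called, without pool K and with plates as the unit. It was uneven over cells, with a median of 0.174, a 95th percentile of 1.58 and a maximum of 231 per 10000 nuclear UMIs. A *Ghrl* UMI was found in 52.4% of cluster 1 cells, 50.0% of cluster 8 cells and 46.8% of non-parietal cells, so its level in cluster 1 is not that of most cells. Markers of enterochromaffin-like cells were at 24.4 and 13 CPM (range 8.98 to 90.3). Of the endothelial list, *Pecam1* and *Cdh5* were near 0, whereas *Plvap*, a diaphragm protein of vessel fenestrae, stood out: the summed endothelial list was at 93.2 and 88.6 CPM of nuclear UMIs in cluster 1, 53.5 and 73.5 in cluster 8 and at most 2.3 elsewhere, and *Plvap* had a UMI in 86.0% of its cells against 1.6% of non-parietal cells. Single cells also carried other types' RNA: 56 cells (12.2%) held *Gkn2* at a level of at least 6.19 per 10000, the 5th percentile of pit cells, 12 cells (2.62%) held *Muc6* at the level of neck cells, and 0 held *Cblif* at that of chief cells. The 56 cells had a median of 30099.5 UMIs. The part of free RNA or of mixed wells in these cells was not tested.

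The mitochondrial share set cluster 1 apart from every other epithelial cluster. Its median cell had 22.8% of its UMIs on mitochondrial genes (quartiles 18.5 and 28%, range 3.28 to 65.9%). The pool medians were 23.1% in K and 21.8% in T, a mean of 22.5 ± 0.919% (SD, n = 2 pools). Cluster 8 had pool medians of 12 and 13.9% (12.9 ± 1.34%), and all non-parietal cells together had 4.83 and 4.39% (4.61 ± 0.311%). The lowest of the 12 cluster medians was 3.52% in chief cells of cluster 10, and the highest was 5.76% in neck cells of cluster 7. Both pools of cluster 1 lay above both pools of cluster 8, and these above every non-parietal cluster. More than 20% of UMIs were mitochondrial in 295 cells of cluster 1 (64.4%), in 24 cells of cluster 8 (9.84%) and in 7 of 3124 non-parietal cells (0.224%). In cluster 1, 32 cells exceeded 40% and only 1 was under 10%. The parietal cluster of the corpus and antrum dataset also had a high share, a median of 17.4% over 57 cells (pools 17.6 and 17.4%), whereas the medians of its other epithelial clusters lay between 4.31 and 5.73%.

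**Figure D1:**
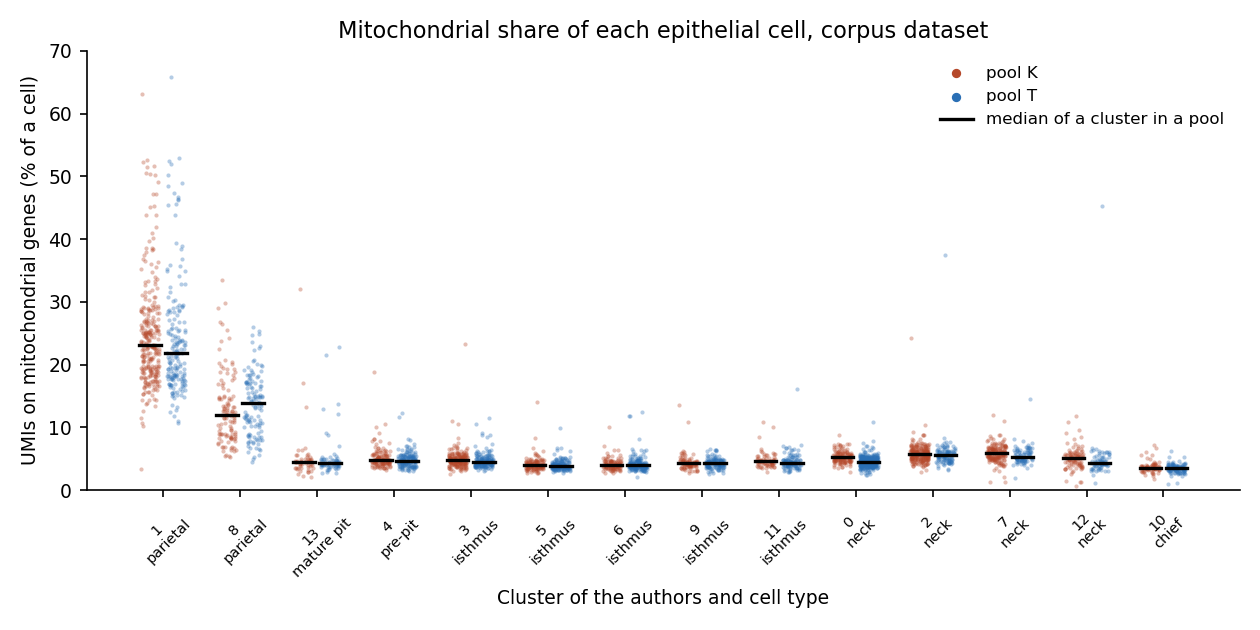
The vertical axis gives the percent of a cell's UMIs on mitochondrial genes, for every epithelial cell (points) of the 14 epithelial clusters of the corpus dataset on the horizontal axis, with pool K in red and pool T in blue. Black lines are the medians of a cluster in a pool: 23.1 and 21.8% in cluster 1, 12 and 13.9% in cluster 8, and 3.52 to 5.76% over both pools in the 12 non-parietal clusters.

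The mitochondrial UMIs were spread over genes of several complexes. In pools K and T, 19.5 and 20.1% of them fell on *mt-Cytb* (cytochrome b of complex III). *mt-Nd4* held 18.3 and 18.8%, *mt-Nd1* 16.3 and 17.1% and *mt-Nd2* 12.8 and 13.2% (subunits of complex I). *mt-Co1* (complex IV) held 10.8 and 10.3%, and the ribosomal RNA *mt-Rnr2* held 11.1 and 9.72%. Non-parietal cells had similar percents for *mt-Nd4* (19.6 and 19.2%) and *mt-Co1* (11.1 and 10.2%) and other ones for some genes. *mt-Nd2* held 9.12 and 8.87% of the mitochondrial UMIs there, *mt-Nd5* 3.90 and 4.05% against 5.45 and 5.57% in cluster 1, and the pools of the 2 groups did not overlap. *mt-Atp6*, *mt-Co2* and *mt-Co3* had 1, 1 and 4 UMIs in all of cluster 1, so the shares are those of the counted genes.

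Each mitochondrial protein gene that could be measured was higher in cluster 1. From here on a CPM is taken from all UMIs of a cluster in a pool and scaled by TMM (trimmed mean of M-values), which aligns the bulk of genes between sums. *mt-Nd3* was at 3528.7 CPM in pool K and 3312.5 in T, against a mean of 300 in the 12 clusters, and *mt-Cytb* at 58317.1 and 55737.8 against 10693.2. Over the 8 measured genes the log2 fold change ran from 1.68 ± 0.09 (SE) for *mt-Nd6*, the gene of the light strand, to 3.54 ± 0.08 for *mt-Nd3*, with a median of 2.72. The fold change here is the log2 level of cluster 1 minus the mean log2 level of the 12 clusters, from a fit over 28 sums (14 clusters by 2 pools). Both ribosomal RNAs were higher too, *mt-Rnr1* by 2.55 ± 0.07 and *mt-Rnr2* by 2.36 ± 0.09. Against cluster 8 the same 8 genes were higher by 0.87 to 1.52, and 4 of them passed the call used below.

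Across all genes, cluster 1 differed widely from the non-parietal epithelium. A gene was called where edgeR's adjusted p was under 0.05 and the change at least 2-fold, and this picked 2216 genes as higher (17.1% of 12922 tested) and 2319 as lower (17.9%). These shares are a background for the lists below, not a result about them. The median log2 fold change of all genes was -0.06. After the mitochondrial genes were removed from the counts and the totals, 2241 genes were higher and 2316 lower and the median was -0.05. With plain totals instead of TMM the median of all genes shifted by -0.411, and the higher genes made up 29.8% of the calls instead of 48.9%. With plain totals of nuclear genes the shift was -0.116 and the share 43.9%. Of the genes tested, 2608 (20.2%) were above, and 1765 (13.7%) below, all 12 clusters in both pools.

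Among nuclear genes, those of the proton pump had the highest levels in cluster 1. *Atp4a*, the catalytic alpha subunit of the H+/K+-ATPase (chr7:30411634-30424959, plus strand), was at 30554 CPM in pool K and 28002.6 in pool T, against 18229.8 and 19597.5 in cluster 8 and a mean of 207 in the 12 clusters. *Atp4b* was at 25886.5 and 22994.6, against 16078.1 and 17656.3 in cluster 8 and a mean of 118. No non-parietal cluster came near, the highest being 737 for *Atp4a* in chief cells and 213 for *Atp4b* in isthmus cells of cluster 9. The log2 fold changes were 7.44 ± 0.20 and 7.79 ± 0.17. *Atp4a* and *Atp4b* together with the next 8 genes made up 11.3% of the nuclear UMIs of cluster 1, against 17.3% for the 10 leading genes of the non-parietal cells. *Atp4a* alone held 3.04 and 2.80% of nuclear UMIs in the 2 pools.

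The potassium channels of the apical membrane were mostly higher. *Kcnq1* was at 919 and 847 CPM and its beta subunit *Kcne2* at 1152.3 and 1071.5, against means of 34.2 and 20.6 in the 12 clusters, by 4.89 ± 0.09 and 6.41 ± 0.11 on the log2 scale. *Kcnj16*, an inward rectifier, was at 1587 and 1312.4, against 519 and 609 in cluster 8 and 24.5 elsewhere, and was above cluster 8 in both pools. *Kcnj15*, another inward rectifier, was higher by 2.53 ± 0.08. *Kcnk1*, a leak channel, went the other way at 4.45 and 7.51, against 25.4 and 18.6 in cluster 8 and 84.3 elsewhere. *Kcnj1* had 0 UMIs in every cluster sum. Chloride and bicarbonate carriers were among the highest folds of the list. *Slc26a9*, a chloride channel of the SLC26 family, was at 1205 and 961 against 4.99, and *Slc26a7*, a chloride and bicarbonate exchanger, at 213 and 206 against 1.20. *Slc26a7* was also 1.74 ± 0.18 above cluster 8 (59.2 and 66.4), a call that DESeq2 did not make (1.72). The basolateral anion exchanger *Slc4a2* was at 2349.1 and 2194 against 85.4, and the chloride channel *Clic6* at 3351.9 and 3411.6 against 157. Some genes of the list did not set cluster 1 apart: *Slc9a4* (-0.26 ± 0.07), the basolateral sodium/proton exchanger of parietal cells, *Slc9a2* (0.50 ± 0.07), another such exchanger, and *Car2* (0.19 ± 0.08), a carbonic anhydrase, were not called. *Aqp4*, a water channel of the basolateral membrane, was higher by 5.07 ± 0.16, and *Cftr* was lower.

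Of the 21 genes of acid secretion and ion transport listed, 19 could be tested, 13 were called higher and 2 lower, and the median log2 fold change was 4.48, against -0.06 over all genes. With mitochondrial genes removed the median stayed at 4.48, and with plain totals it was 4.07. Summed over the list, cluster 1 had 76559.1 and 70277 CPM of nuclear UMIs in the 2 pools, cluster 8 had 52341.6 and 55411, and the 12 clusters ranged from 2105.3 to 10439.5.

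**Figure D2:**
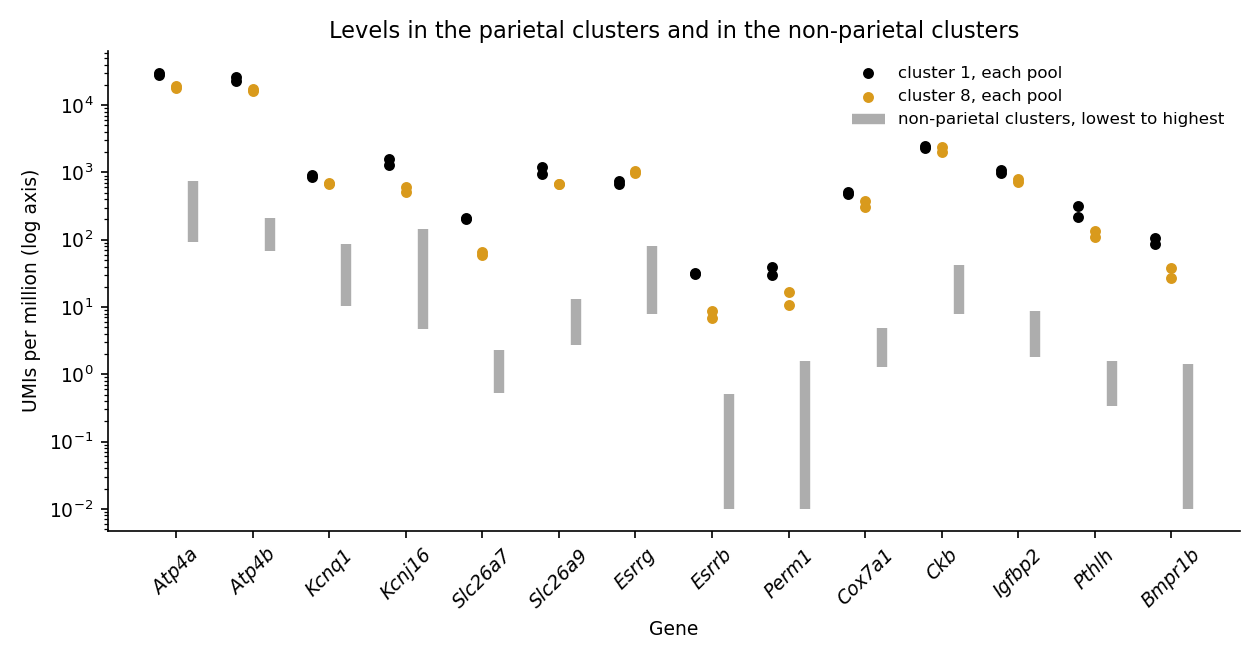
Levels of 14 genes in CPM on a log axis, with the 2 pools of cluster 1 (black points) and of cluster 8 (orange points) and the range from the lowest to the highest non-parietal cluster mean (grey bars, with a level of 0 drawn at 0.01). The points of cluster 1 lie above the grey bar for all 14 genes, for example 919 and 847 against at most 86.6 for *Kcnq1*, and both pools of cluster 8 lie above both of cluster 1 only for *Esrrg*.

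Receptors that control acid secretion were largely higher. *Hrh2*, the histamine receptor, was at 170 and 168 CPM against 9.24. *Sstr2*, a somatostatin receptor that restrains secretion, was at 96.2 and 83.7 against 9.26, and *Cckbr*, the gastrin receptor, at 34.4 and 24.9 against 5.63. The muscarinic receptor *Chrm3* was at a low level, 18.4 and 13, though above the 3.17 elsewhere. *Bmpr1b*, a type I receptor for bone morphogenetic proteins, was at 107 and 85.6, against 27.2 and 38.4 in cluster 8 and 0.435 elsewhere (8.18 ± 0.23). *Ptger3*, an inhibitory prostaglandin receptor, was at 22.0 and 18.1, below the 60.2 of chief cells although 4.63 ± 0.23 above the mean of the log2 levels. *Ptger4*, *Egfr* and *Fgfr4* were lower (-2.93, -1.37 and -2.80 on the log2 scale). In all, 8 of 12 tested receptors were called higher and 3 lower, with a median of 2.4. *Cckbr*, *Ptger3* and *Bmpr1b* were also called above cluster 8, where 2.95% of all genes were called higher.

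Genes of the canaliculus, the folded apical membrane, and of its vesicles differed less. *Ezr*, which links that membrane to actin, was at 2173.3 and 2111.4 CPM against 637 (1.94 ± 0.05), and *Ank3*, a membrane-skeleton adaptor, was higher by 3.01 ± 0.06. *Hip1r*, a linker of vesicles to actin, was at 330 and 315 against 64.7. *Mal*, a raft protein of apical traffic, was at 214 and 207, but mature pit cells stood higher at 725. *Rab25* (-0.93 ± 0.07) was not called, and the syntaxin *Stx3* was lower (-1.11). Of 21 tested genes, 10 were higher and 1 lower, and the median was 0.96.

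Nuclear genes of the respiratory chain were higher nearly without exception. All 37 tested genes of complex I, 4 of complex II, 10 of complex III and 14 of complex V were called higher, and 12 of 13 of complex IV. Over the 78 genes the median log2 fold change was 1.95, with 77 called, against 17.1% of all genes, and it was also 1.95 without mitochondrial genes in the totals, 1.83 with plain nuclear totals and 1.54 with plain totals. *Ndufs1*, a core subunit of complex I, was at 687 and 658 CPM against 111. *Cox4i1*, a subunit of complex IV, was at 4650.6 and 4449.2 against 875, and *Atp5b*, the catalytic beta subunit of the ATP synthase, at 5394.4 and 5299.9 against 1507.9. *Cox7a1*, the muscle form of a complex IV subunit (chr7:29883569-29885503, plus strand), stood far from the rest at 480 and 516 against 2.82, a log2 fold change of 7.54 ± 0.08. *Cox7a2l*, an assembly factor of supercomplexes, was the only gene not called (227 and 248 against 224).

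Against cluster 8, the nuclear and the mitochondrial genes of the chain parted. The 78 nuclear genes ran from -0.72 to 0.55 on the log2 scale with a median of -0.15, and 61 of them were on the side of cluster 8. None differed by the 2-fold that a call needs. Without that threshold, 25 had an edgeR adjusted p under 0.05, of which 22 were lower and 3 higher in cluster 1. *Ndufs1* had 570 and 660 CPM in cluster 8, and *Atp5b* 5739.1 and 5817.4, the pools of the latter above both pools of cluster 1. In the same contrast the 8 mitochondrial protein genes had a median of 1.03. *mt-Nd4*, for example, was at 54809.4 and 52134.3 in cluster 1 and 24025.4 and 26812.1 in cluster 8. The sums of the complexes went the same way, 24326.3 and 24948.1 CPM of nuclear UMIs for complex I in cluster 1 and 27018.4 and 28254.5 in cluster 8. Detected genes at a fixed depth were also slightly fewer in cluster 1. Thinned to 10000 UMIs a cell, the median was 3127 genes in cluster 1, 3392 in cluster 8 and 2483 to 3928 in the 12 clusters, 1 of them below cluster 1. Thinned to 5000 nuclear UMIs, it was 2365.5 in cluster 1 and 2403 in cluster 8, with 4 clusters below. No cell of cluster 1 was too shallow for either depth, and without thinning 7 clusters lay below its 6437.5.

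**Figure D3:**
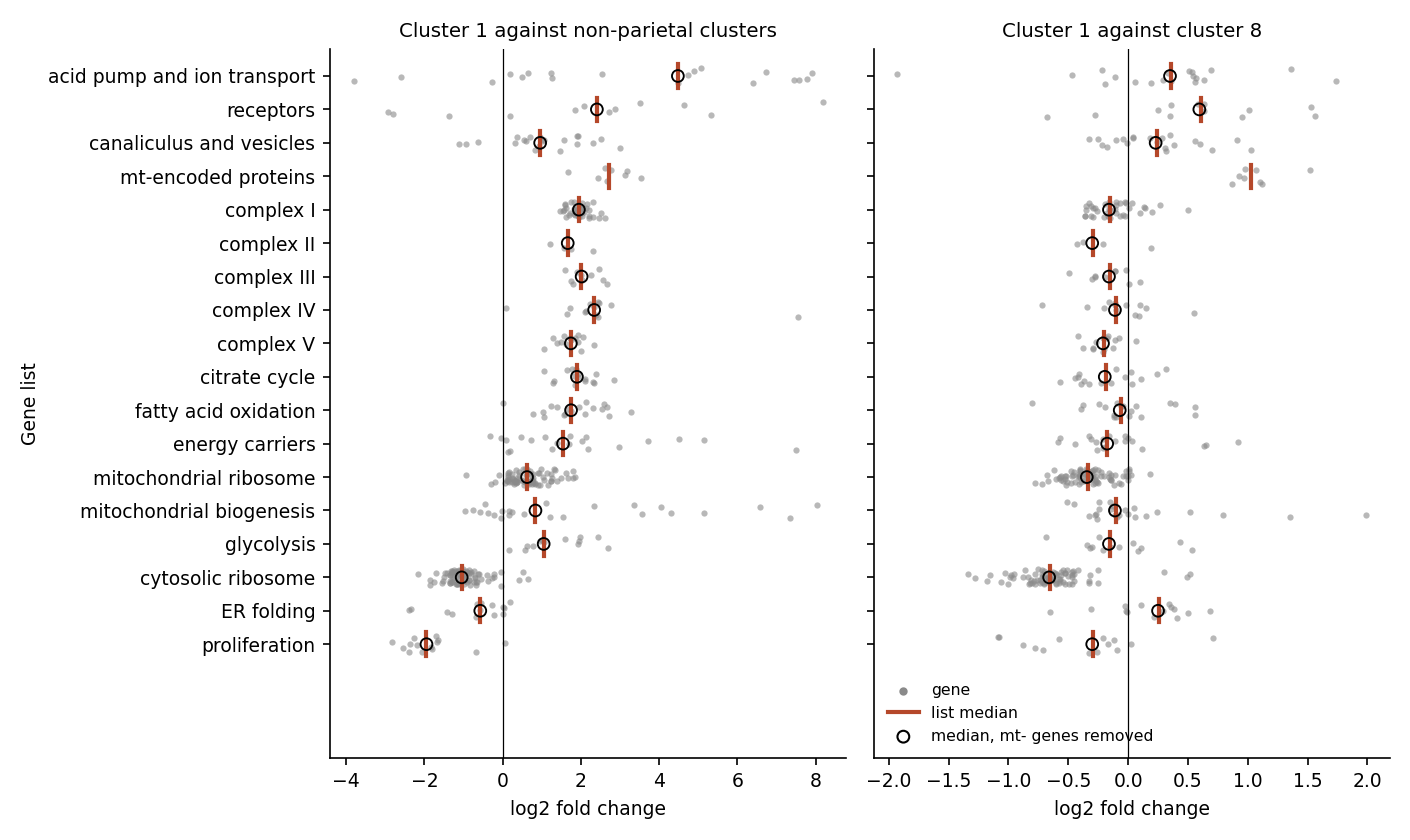
Log2 fold changes (horizontal axes) of the genes (grey points) of 18 lists (vertical axis) in cluster 1 against the non-parietal clusters at left and against cluster 8 at right, where the horizontal scale is narrower. Red bars are list medians and open circles the medians with mitochondrial genes removed, which lie on the bars. The medians of complexes I to V lie between 1.66 and 2.34 at left and just below 0 at right, whereas mitochondrially encoded proteins lie at 2.72 and 1.03.

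To show where a known regulator's sequence occurs among these genes, RefSeq promoters (250 bases before to 50 after a start site, GRCm38.p6) were searched on both strands for TNAAGGTCA, an extended response element that estrogen-related receptors are known to bind. It was present in 3 of 73 promoters of the respiratory chain (4.11%; 68 of 82 listed genes matched), 1 of 16 of the acid and ion list (6.25%; 11 of 21 genes), 0 of 19 of the citrate cycle, 0 of 18 of fatty acid oxidation and 0 of 37 of the biogenesis list, against 421 of all 32851 (1.28%). With so few promoters these are counts only, and a match is no evidence of binding. The 4 genes that held it were all called higher in cluster 1. So were 77 of the 78 tested genes of the chain and 13 of the 19 of the acid and ion list, so these 4 calls do not bear on the motif. For *Atp5g3* (subunit c of the ATP synthase), *Kcnj16* and *Ndufb4* (complex I) the 250 bases before the start site follow, and for *Sdhd* (complex II) 30 bases around its match. They read 5′ to 3′ on the gene's strand, with the match in capitals.
Atp5g3, minus strand, chr2:73911327-73911576, first matching base 52 before the start: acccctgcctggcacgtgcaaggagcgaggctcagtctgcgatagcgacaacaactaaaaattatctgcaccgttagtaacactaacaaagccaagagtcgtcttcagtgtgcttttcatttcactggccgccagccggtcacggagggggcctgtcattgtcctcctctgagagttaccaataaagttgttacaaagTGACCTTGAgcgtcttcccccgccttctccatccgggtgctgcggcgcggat
Kcnj16, plus strand, chr11:110967783-110968032, first matching base 190 before the start: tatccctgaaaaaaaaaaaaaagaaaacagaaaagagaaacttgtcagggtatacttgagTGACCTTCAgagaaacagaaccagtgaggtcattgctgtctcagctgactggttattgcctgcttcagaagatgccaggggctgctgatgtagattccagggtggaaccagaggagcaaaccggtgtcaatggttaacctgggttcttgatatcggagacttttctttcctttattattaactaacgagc
Ndufb4, minus strand, chr16:37654369-37654618, first matching base 57 before the start: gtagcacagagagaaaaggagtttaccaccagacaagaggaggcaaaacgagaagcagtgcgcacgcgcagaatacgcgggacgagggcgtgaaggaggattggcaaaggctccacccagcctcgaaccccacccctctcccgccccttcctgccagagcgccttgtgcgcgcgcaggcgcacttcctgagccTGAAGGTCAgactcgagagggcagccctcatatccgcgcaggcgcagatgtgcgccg
Sdhd, minus strand, chr9:50603800-50603829, first matching base 37 after the start: tttccgggttgtagagTGACCTTGAgccct

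*Atp5g3* was at 3506.5 and 3672.7 CPM against 970 elsewhere, with cluster 8 higher in both pools (4666.3 and 4965). *Ndufb4* and *Sdhd* were higher by 1.76 and 1.20 on the log2 scale, and *Kcnj16*, whose levels are given above, by 6.74.

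Fuel pathways of the mitochondria followed the chain. All 16 tested genes of the citrate cycle were called higher, with a median of 1.90, among them the citrate synthase *Cs* at 1052.6 and 1075.2 CPM against 316. *Cs* was again higher in cluster 8 (1393.3 and 1446.4, -0.42 ± 0.09, not called). Of 19 genes of fatty acid oxidation 17 were higher, with a median of 1.75, such as *Acsl1* (3.27 ± 0.08), which activates fatty acids, and *Hadhb* (2.72 ± 0.06), the thiolase subunit of the trifunctional protein. *Acaa2*, a thiolase, was level (0.01 ± 0.06). Glycolytic genes were called higher in 8 of 13 cases, with a median of 1.05, led by the hexokinase *Hk1* (2.7 ± 0.07). *Gapdh* had only 7.19 and 9.57 CPM, and because it has many near-identical copies in the genome its level is uncertain.

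Carriers of energy showed both ends of the range. *Ckb*, the brain creatine kinase that buffers ATP (chr12:111635789-111639008, minus strand), was at 2326.2 and 2447.5 CPM against 14.7, a log2 fold change of 7.51 ± 0.09. *Ldhb*, the lactate dehydrogenase of oxidative tissues, was at 1660.8 and 1739.5 against 76.2, whereas *Ldha* was at 631 and 754 against 688 and was not called. *Slc16a7*, a carrier of pyruvate and lactate, was at 1599.9 and 1365.7 against 52.8, and the ADP/ATP carrier *Slc25a4* at 1175.4 and 1248.8 against 94.7. Of 20 tested carriers 13 were higher and none lower.

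Regulators of mitochondrial biogenesis were split, 12 of 24 being called higher and the others not called. *Esrrg* was at 751 and 677 CPM against 42.1 (4.30 ± 0.08), with cluster 8 higher in both pools at 1043.7 and 997. *Esrrb* (chr12:86407887-86568409, plus strand) was at 31.6 and 30.8, against 6.94 and 8.65 in cluster 8. No non-parietal cluster had more than 3 *Esrrb* UMIs in a pool, so cluster 1 was at least 40.9-fold higher. *Esrra* was at 201 and 200 against 42.4. The coactivators *Ppargc1a* and *Ppargc1b* were at 179 and 126, and 136 and 134, against 5.38 and 14.7. *Perm1*, a muscle regulator downstream of these receptors, was at 30.1 and 39.9, against 10.7 and 16.6 in cluster 8 and 0.359 elsewhere. The general factors were not called: *Tfam*, the packaging factor of mitochondrial DNA, was at 64.2 and 61.1 against 57.6, and *Nrf1* (-0.76 ± 0.14) and *Gabpa* (-0.22 ± 0.09) were slightly below. None of the 24 was called lower, and their median was 0.84.

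Genes whose levels over the 28 sums were most like those of *Esrrg* were *Acat1*, *Cnn3*, *Septin6*, *Fam126a*, *Nr0b2*, *Vegfb*, *Ephb3* and 4930402H24Rik, with Pearson's r of log2 levels from 0.967 down to 0.943. The 28 points share plates, and the 4 parietal sums are far from the other 24, so r mainly reflects that gap. *Acat1*, a mitochondrial thiolase of ketone and isoleucine metabolism, was at 1153.1 and 1133.3 CPM, with 1213.3 and 1226.2 in cluster 8 and 341 elsewhere.

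Translation machinery divided by compartment. Of 78 genes of the mitochondrial ribosome 17 were called higher, close to the 17.1% of all genes, with a median of 0.62. Of 82 genes of the cytosolic ribosome none was higher and 46 were lower, with a median of -1.05. *Rps4x*, for example, was at 226 and 209 CPM against 467 and 376 in cluster 8 and 799 elsewhere. Summed, the cytosolic ribosomal genes were at 16805.7 and 17990.9 CPM of nuclear UMIs, below the 18123.4 of the lowest non-parietal cluster. Many ribosomal genes have processed copies, and how the counting divided such reads is not known. Folding enzymes of the endoplasmic reticulum were lower in 4 of 14 cases and higher in none, *Pdia6* at 124 and 116 CPM against 651 (-2.38 on the log2 scale). Proliferation genes were lower in 12 of 14, *Mki67* at 4.86 and 3.24 against 93.8, and 454 of the 458 cells (99.1%) had been assigned to G1 by the authors' phase call.

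Antioxidant enzymes were mostly higher, in 10 of 13 cases with a median of 1.45. Catalase (*Cat*) was at 755 and 732 CPM against 78.8, the peroxiredoxin *Prdx5* at 1666.3 and 1779.9 against 181, and the mitochondrial superoxide dismutase *Sod2* at 817 and 881 against 135. *Prdx1*, the cytosolic peroxiredoxin, was at 733 and 920 against 1179.6 and was not called. Fusion genes were among the 5 of 13 genes of mitochondrial dynamics called higher (*Mfn2* 1.79 ± 0.06, *Opa1* 1.75 ± 0.07), and the mitophagy receptor *Bnip3* was at 89.1 and 101 against 22.8. *Pink1*, the kinase that marks damaged mitochondria, was at 114 and 138 against 55.9 and 65.0 in cluster 8 (1.05 ± 0.14, called, but 0.84 and not called with plain totals).

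Secreted factors showed a selective pattern. *Igfbp2*, an insulin-like growth factor binding protein (chr1:72863606-72891634, plus strand), was at 1087 and 989 CPM against 3.76, and *Pthlh*, the parathyroid hormone-like hormone, at 319 and 216 against 0.896. *Vegfb* was at 626 and 624 against 55.3, and *Vegfa*, the main angiogenic factor, at 321 and 289 against 83.8. *Fgf1* was at 13.6 and 15.5, against 2.67 and 2.99 in cluster 8 and 0.691 elsewhere. The hedgehog ligands *Shh* (2.53 and 0.589 against 25.9) and *Ihh* (21.3 and 22.5 against 124) were lower, as were the EGF receptor ligands *Tgfa*, *Areg* and *Hbegf*. In all 6 of 16 were higher and 7 lower. *Pthlh*, *Fgf1*, *Fndc5* and *Bmp7* were also called above cluster 8, though *Pthlh* was not with plain totals (0.91). In the Notch list none was higher and 5 of 7 were lower, *Notch2* at 1.32 and 1.03 against 17.9.

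The 12 genes that the naming rule picked for the highest folds were not among the acid and respiratory genes above. *Rnase1*, a secreted ribonuclease (chr14:51382455-51384247, minus strand), was at 484 and 481 CPM against 0.908 (9.21 ± 0.14), with 103 and 182 in cluster 8. *Slc2a4*, the insulin-responsive glucose transporter (chr11:69831006-69839070, minus strand), was at 295 and 308 against 0.887, with 91.3 and 143 in cluster 8. *Ntn1*, a guidance ligand, was at 123 and 110 against 0.480, and *Kcne1*, another beta subunit of *Kcnq1*, at 89.4 and 106 against 0.316. *Fabp1*, a fatty acid binding protein, was at 55.4 and 65.4 and at least 79.0-fold higher, and *Obp2a*, an odorant binding protein, at 50.6 and 62.6 and at least 73.9-fold higher, because no non-parietal cluster had more than 3 of their UMIs in a pool. *Cst8* (at least 50.1-fold), 2210409E12Rik (at least 23.5-fold), D7Ertd443e (at least 22.9-fold), *Tmem178* (at least 13.3-fold), *Gm15543* and *Dmbx1* completed the 12. *Apoa1*, the main protein of high-density lipoprotein, held 1.38% of nuclear UMIs in each pool, against 0.00837 and 0.00827% in non-parietal cells, and is named here after its values were seen.

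The 8 genes with the lowest folds were nearly empty in cluster 1. *Tbx4*, a T-box factor, *Man1c1*, *Tnfsf12* and *Kcnk7* had 0 UMIs in both pools, which allows up to 3, against means of 3.49, 5.76, 2.10 and 1.56 CPM elsewhere. *Gm2379*, *Ffar2*, *Ugt2a3* and *Pirt* had 1 to 4 UMIs in all, and *Pirt*, the highest of these elsewhere, was at 14.4. *Pgc*, pepsinogen C, was lower (-3.47 on the log2 scale) and still held 0.484 and 0.579% of nuclear UMIs against 8.38 and 7.57% in non-parietal cells. It was also called below cluster 8 (-1.3), at 4844.7 and 5789.1 against 16042.8 and 11175.9 CPM of nuclear UMIs. Without pool K and with plates as the unit it was -0.96, not called. The study describes a *Pgc* gradation from pre-parietal to parietal cells and took cluster 1 as its parietal endpoint.

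Cluster 1 and cluster 8 were much alike beside these differences: 672 of 12922 genes were called, 381 higher in cluster 1 (2.95%) and 291 lower (2.25%). The higher genes made up 56.7% of the calls with TMM and 31.3% with plain totals, which shifted the median of all genes by -0.22. *Meg3*, a maternally expressed long noncoding RNA (chr12:109506877-109538165, plus strand), was at 102 and 78.1 CPM in cluster 1 and at 0.178 and 0.333 in cluster 8, a log2 fold change of 8.32 ± 0.33. Plates differed in *Meg3*, from 45.1 to 114 CPM in K and from 3.62 to 134 in T on the scale of the fit over plates. *Rian*, a noncoding RNA of the same imprinted region, was at 6.07 and 3.53 in cluster 1 and had 0 UMIs in cluster 8. *Egf*, the epidermal growth factor, was at 36.5 and 36.8 against 1.42 and 1.5, and *Tex15* at 22.2 and 19.7 against 0.712 and 0.998. *Abcg1*, a sterol transporter, was at 11.1 and 10.9 against 0.178 and 0.166. *Wnt4*, a Wnt ligand, was at 1.01 and 1.77 and had 0 UMIs in cluster 8. Chief cells held more *Egf* (57) and *Abcg1* (28.5) than cluster 1, and mature pit cells held more *Wnt4* (3.91). Lower than in cluster 8 were *Bpifb1*, a secreted mucosal protein, at 61.4 and 90.4 against 973 and 802, and *Slc1a2*, a glutamate transporter, at 2.13 and 1.77 against 19.4 and 18.3. So were *Angptl8*, *Cpne7*, *Bpifb5* and *Fzd9*, each at or below 0.506. The early response genes that dissociation is known to induce were lower than in cluster 8 in 9 of 14 cases (median -1.14), *Fos* at 243 and 289 against 903 and 549. Their part in the other differences from cluster 8 was not tested.

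Within cluster 1, cells with a higher mitochondrial share held fewer nuclear UMIs. The 458 cells were ordered by that share into 4 groups of 115, 114, 114 and 115 cells, with median shares of 16.8, 20.5, 25 and 33.7%. The median number of nuclear UMIs was 52860, 40554, 32213 and 19747 in these groups, and of detected genes 7499, 6855, 6171 and 4971. Across the 458 cells Spearman's rho with the share was -0.792 for nuclear UMIs and -0.823 for detected genes. All UMIs of a cell, mitochondrial ones included, had medians of 62927, 50994.5, 43165.5 and 30355 in the 4 groups. Cells with a higher share thus held fewer UMIs in all. The nuclear UMIs stand in the denominator of the share, so these values are tied by construction. Both pools showed the relation (rho -0.769 in K and -0.811 in T for nuclear UMIs).

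As parts of the nuclear UMIs, the proton pump and the nuclear respiratory genes went apart along this order. The median of nuclear UMIs fell from 52860 to 19747 along it, so the values below are not levels per cell. Per 10000 nuclear UMIs, *Atp4a* was at 221, 277, 355 and 454 in the 4 groups and *Atp4b* at 193, 240, 296 and 327. In pool T *Atp4a* went from 223 to 434, and its rho with the share was 0.79 in K and 0.802 in T. *Kcnq1* was at 6.90, 9.19, 10.8 and 10.8. *Esrrg* ran the other way, at 7.91, 8.06, 6.51 and 5.14, as did *Cs*, from 11.3 to 8.13. The summed nuclear respiratory chain was flat at 900, 934, 898 and 929, with a rho of -0.0067 over the 458 cells (-0.0515 in K, 0.0768 in T). For *Atp4a* rho was 0.795, for *Atp4b* 0.567 and for *Esrrg* -0.359. The nuclear-retained RNAs *Malat1* (9.63 to 22.3) and *Neat1* (5.99 to 11.4) were higher at the high end, the cytosolic ribosome was at 196 in the lowest group and 164 in the highest, and *Fos* at 3.32 and 1.93. RNA of other cell types also moved with the share: rho was 0.423 for *Gkn2* (0.428 in K, 0.447 in T) and 0.431 for *Pgc*, while the group means were 6.54, 3.04, 3.64 and 7.81 per 10000 for *Gkn2* and 63.2, 39.4, 38.8 and 65.3 for *Pgc*. The cells of a pool share mice and plates, the values share the denominator, and depth changed along the order as given above, and the part of cell quality or of other cells' RNA in these trends was not tested.

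**Figure D4:**
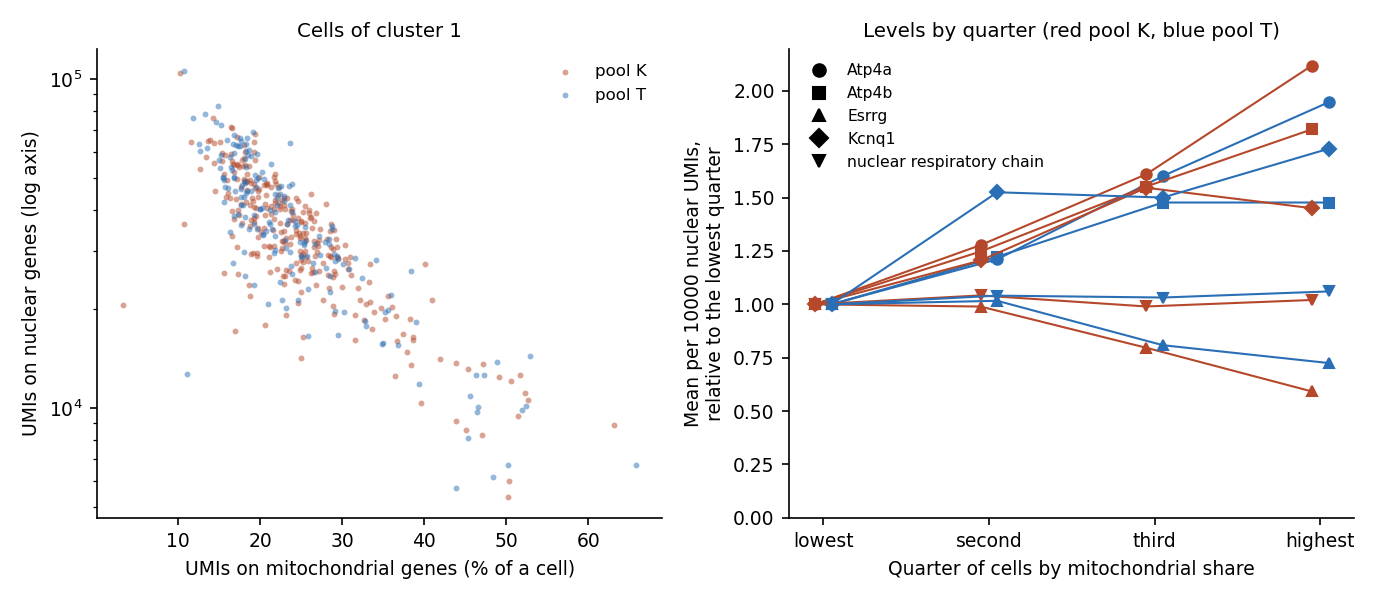
Left, nuclear UMIs of each of the 458 cells (log axis) against the percent of its UMIs on mitochondrial genes. Right, mean levels per 10000 nuclear UMIs in the 4 groups of cells by mitochondrial share, relative to the lowest group, with pool K in red and pool T in blue. *Atp4a* (circles) was higher at the high end in both pools (223 to 434 in T), the nuclear respiratory chain (downward triangles) stayed near its starting level and *Esrrg* (upward triangles) was lower.

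Pools K and T differed in how many of these cells they held. Cluster 1 made up 15.0 ± 2.32% of the epithelial cells of a plate in pool K (SD, n = 6 plates, range 13 to 19.3%) and 9.10 ± 3.11% in pool T (range 5.54 to 13.3%), with p = 0.00649 in a two-sided exact permutation test over plates, adjusted over 6 tests p = 0.0195. The lowest plates of K overlapped the highest of T. The median mitochondrial share of cluster 1 was 23.4 ± 0.924% over the plates of K and 21.0 ± 1.91% over those of T, a difference of 2.47 percentage points that missed the threshold (exact permutation p = 0.0281, adjusted p = 0.0563). Non-parietal cells of the same plates had 4.83 ± 0.0963% in K and 4.39 ± 0.155% in T, without overlap (exact permutation p = 0.00216, the smallest that 924 regroupings allow, adjusted p = 0.013). In cluster 8 the order of the pools was opposite, 11.7 ± 1.44 and 13.4 ± 1.96% (exact permutation p = 0.113, adjusted p = 0.143). Median nuclear UMIs of cluster 1 were 34255.7 in K and 39461.9 in T (exact permutation p = 0.119, adjusted p = 0.143). Plates of a pool hold cells of the same suspension, so these p-values measure the spread between plates and speak of these 2 pools alone.

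**Figure D5:**
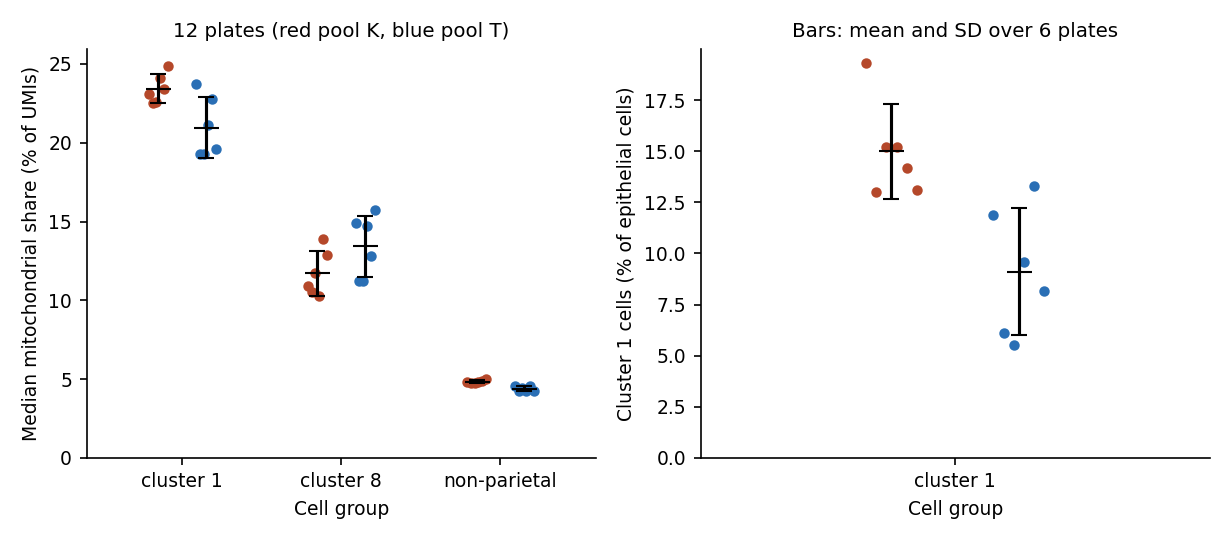
Left, median mitochondrial share of cluster 1, cluster 8 and non-parietal cells on each of 12 plates (points, pool K red and pool T blue). Right, cells of cluster 1 as a percent of the epithelial cells of a plate. Bars are the mean and SD over 6 plates: 23.4 and 21.0% for the share in cluster 1, and 15.0 and 9.10% for its part of the epithelial cells.

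Between pools, 144 of 8867 genes (1.62%) changed in cluster 1 at an adjusted p under 0.05 (edgeR's quasi-likelihood test over 12 plates), 84 higher in K and 60 lower, and 10 changed by at least 2-fold, 1 higher and 9 lower. Plate values that follow are CPM on the scale of that fit. *Kcnk3*, an acid-sensitive leak channel, was at 130 to 154 (median 144) in K and 72.5 to 106 (median 89.7) in T, higher in every K plate (0.69 ± 0.08 on the log2 scale, adjusted p = 8.74e-05). *Slc7a2*, a cationic amino acid transporter, was at 14.6 to 29.2 in K and 8.45 to 13.8 in T, again without overlap (0.96 ± 0.18, adjusted p = 0.00782). It was higher in K in non-parietal cells too (0.4, adjusted p = 0.0349), whereas *Kcnk3* was not (0.05, adjusted p = 0.935). *Gpat3*, an acyltransferase of triglyceride synthesis, was at 20 to 30.9 and 7.12 to 17.7 (0.87 ± 0.18, adjusted p = 0.0123). *Plin4* (0.89), the pit marker *Gkn1* (0.87) and the Y-linked demethylase *Kdm5d* (0.61) rose in K as well. All the pools held male mice by the labels, and the 4 pit markers had a median pool difference of 0.76 in cluster 1, of which *Gkn1* alone passed. The part of pit RNA in this was not tested.

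Genes lower in K included stress and detoxification genes with a wide spread over plates. *Ccn1*, a matricellular early response gene, was at 0.931 to 5.21 in K (median 3.01) and 7.07 to 107 in T (median 13.2), without overlap (-3.35 ± 0.62, adjusted p = 0.00704), and was lower in K in non-parietal cells too (-1.46, adjusted p = 7.47e-06). *Sprr1a*, a cornified envelope protein, was at 0 to 9.5 in K and 0 to 148 in T (-4.17 ± 0.82, adjusted p = 0.00844). *Srxn1*, which repairs peroxiredoxins, was at 8.87 to 22.2 and 8.36 to 189, *Osgin1*, an oxidative stress response gene, at 1.77 to 6.50 and 4.07 to 37.9, *Gsta3*, a glutathione transferase, at 5.81 to 14.6 and 9 to 75.7, and the homeobox gene *Nkx6-2* at 0.465 to 7.63 and 3.86 to 38.5. These 4 overlapped between the pools. *Osgin1* was lower in K in non-parietal cells too (-0.8, edgeR's adjusted p = 6.39e-05). *Srxn1*, *Gsta3* and *Nkx6-2* did not pass there (adjusted p = 0.336, 0.863 and 0.164). The uncharacterized gene G530011O06Rik was the only gene at least 2-fold higher in K (12 against 0.147 CPM in the summed cells). It was higher in K in non-parietal cells too (7.81 on the log2 scale, edgeR's adjusted p = 1.78e-20). In cluster 8 it was at 7.83 CPM in K and 0.166 in T, so this difference was not particular to cluster 1. In cluster 1 it had 1 UMI in T, so the naming rule left it out.

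Between pools 1.62% of all genes passed, the background for the counts of list members that follow. In the acid and ion list 4 of 17 tested genes rose in K and none fell: *Slc26a9* by 0.34 (adjusted p = 0.00704), *Slc12a2* by 0.34 (adjusted p = 0.0179), *Kcnj16* by 0.30 (adjusted p = 0.0257) and *Atp1b1* by 0.23 (adjusted p = 0.0388). *Atp4a* (0.14) and *Atp4b* (0.18) did not pass edgeR's test and did pass DESeq2's, at 0.13 and 0.18. None of the 78 nuclear respiratory genes passed edgeR's test (12 had an unadjusted p under 0.05, and DESeq2 passed 5), and of the 10 mitochondrial protein and ribosomal RNA genes 1 did, *mt-Rnr2* at 0.33 (adjusted p = 0.0248). *Pthlh* rose in K by 0.60 (adjusted p = 0.00704), and *Calr*, *Canx* and *Pdia3*, chaperones of the endoplasmic reticulum, by 0.30 to 0.32. Genes of the dissociation list fell in 3 of 14 cases (*Jun* by 0.63, *Jund* by 0.42, *Ier2* by 0.53) and those of the heat shock list in 2 of 7 (*Hspa1a* by 0.92, *Hspa1b* by 0.87). These responses moved with the pool, and their part in the other differences was not tested.

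The pool difference of cluster 1 was itself different from that of non-parietal cells for 69 of 11983 genes (0.576%, edgeR over 24 plate sums). *Gpat3* rose in K in cluster 1 and was at -0.44 in non-parietal cells (adjusted p = 0.147), a difference of 1.33 (adjusted p = 0.0111). For *Gsta3* the difference was -1.76 (adjusted p = 0.0246). For *Kcnk3*, *Slc7a2* and *Ccn1* a difference from non-parietal cells was not shown (adjusted p = 0.35, 0.251 and 0.336).

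The parietal cluster of the corpus and antrum dataset, whose samples are separate, gave values for the same genes. The labels do not say whether its mice were other animals, so it is not read as an independent repeat. Its non-parietal reference also differed. By the study's text it included mature pit and pre-pit clusters of both corpus and antrum. The clusters set against cluster 1 were from the corpus alone, of mature pit, pre-pit, isthmus, neck and chief types. Sizes of fold changes and list medians thus rest on unlike references, and the part of this in the differences below was not tested. Over 10062 genes tested in both datasets, the log2 fold changes against the non-parietal clusters of each had a Pearson's r of 0.867, across genes, which are not independent. Of 1739 genes called higher in cluster 1, 1683 (96.8%) were also positive there and 1369 (78.7%) called higher, where 18.2% of all these genes were called higher. Of 1680 called lower, 1081 (64.3%) were called lower, where 16.4% of all genes were. The nuclear respiratory chain had 76 of 78 called higher with a median of 1.86, and the 20 tested acid and ion genes had 13 higher and 1 lower with a median of 3.49. Other lists differed: canaliculus and vesicle genes had 6 of 19 higher and 4 lower, with a median of 0.06 against 0.96 in cluster 1. Secreted factors had 4 of 13 higher and 7 lower, with a median of -1.38 against -0.01. *Esrrg* was higher by 7.10, *Kcnq1* by 5.82 and *Atp4b* by 10.15. The cytosolic ribosome had 13 of 77 lower, close to the 16.4% of all genes there, and 1 higher (median -0.69). In cluster 1, 46 of its 82 tested genes were lower. The dissociation list differed in direction, with 4 of 14 higher and 1 lower and a median of 0.39, against -0.80 in cluster 1.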

How the data were processed

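Libraries were made from sorted single cells by Quartz-Seq2. The authors converted base calls with bcl2fastq (2.20.0.422, submitters' processing notes), processed reads with Drop-seq tools and FASTX-Toolkit, aligned them to GRCm39 with STAR (GENCODE annotation) and counted UMIs per gene and cell. The deposited counts are whole, unnormalized UMI counts, and the kept cells, cluster numbers and cell-cycle phases are the authors' (Seurat), as is the percent of mitochondrial UMIs, which was recomputed here. The names of cluster types follow the study's text. A further 48 annotation columns were not used.

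Counts were summed per cluster and pool (28 sums) or per plate and compared with edgeR 4.0.16 (quasi-likelihood, TMM, filterByExpr, Benjamini-Hochberg adjustment) in R 4.3.3. DESeq2 1.42.0 was an alternative. Cells were handled in Python 3.11.15 and plates compared with exact permutation tests in scipy 1.17.1. A call needed an adjusted p under 0.05 and a 2-fold change, or the p alone between pools. CPM means UMIs per 1000000, and the correlations of gene levels with *Esrrg* used log2(CPM + 0.5). The statistics were tested on simulated data. Plates and pools are the only replication, and nothing in the labels makes plates more than technical replicates of a pool.

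Named genes were the given markers and members of listed gene groups. From cluster 1 against the non-parietal clusters, they were also the 12 highest and 8 lowest called genes whose levels in cluster 1 lay beyond all 12 clusters and whose higher group reached 10 UMIs in each pool. By the same rule 6 each way were named against cluster 8 and 6 each way between pools, together with the 8 genes most correlated with *Esrrg*. Genes outside this rule are marked as such. The members of the cluster and all lists were chosen with earlier results of these data known. Pools pair the sums of a fit, since each pool shares its mice across clusters. Deviations of cluster 1 from its mean, taken as log2(CPM + 1), correlated with those of the 13 other clusters of the same pool at 0.0677 to 0.188 (median 0.112).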

Additional observations from a re-analysis of the deposited data

Results flagged for a closer look

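In 56 checks of plate values of cluster 1, a single plate stood apart from the other 5 of its pool in 9 cases. Chance alone marks about 1 in 20 groups. Pool K plate 1 had 19.3% of its epithelial cells in cluster 1, against 13 to 15.2% on the others, and had *Srxn1* at 22.2 CPM against 8.87 to 13.5. *Kcnq1* was at 812 CPM on pool K plate 6 against 679 to 713, and *Gsta3* at 14.6 on pool K plate 4 against 5.81 to 8.87. Pool T plate 4 stood apart for 3 genes that were lower in K: *Srxn1* at 189 CPM (others 8.36 to 46.8), *Nkx6-2* at 38.5 (3.86 to 16.5) and *Gsta3* at 75.7 (9 to 33.5). *Atp4b* was at 14990.7 CPM on pool T plate 2, below the other 5 plates, and G530011O06Rik was at 0.918 on pool T plate 3 and 0 on the other 5.

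The pool difference of cluster 1 differed from that of non-parietal cells for 69 genes by a test of the difference itself (edgeR). Among the named genes these were *Gpat3*, by 1.33 on the log2 scale (adjusted p = 0.0111), and *Gsta3*, by -1.76 (adjusted p = 0.0246).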

How the results depend on the processing

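No called gene named in the text changed sign, but the balance of calls did. Against cluster 8 it went from 381 higher and 291 lower to 249 and 546 with plain totals, 256 and 260 with DESeq2, and 194 and 234 with plates as the unit. Against the non-parietal clusters it went from 2216 and 2319 to 3204 and 2266 with no filter. Against cluster 8, taking plates as the unit gave 428 genes in place of 672, and, still with plates as the unit, 343 to 578 with either pool left out. Between pools, the 144 genes became 417 with no filter and 242 with DESeq2, and ranged from 69 to 210 with a plate left out (81 without pool K plate 3, 69 without pool K plate 6, 93 without pool T plate 2). The 10 genes changed at least 2-fold became 59 with no filter and 7 to 16 with a plate left out. They became 0 with DESeq2, whose independent filter gave no adjusted p to 6190 of 8867 genes, among them 9 of the 10, while 16 genes had an unadjusted p under 0.05 and a 2-fold change. The interaction went from 69 genes to 236 with DESeq2. In the corpus and antrum dataset, leaving out a pool, with plates as the unit and so fewer genes tested (6770 and 7463 in place of 10229), gave 2329 to 2517 genes in place of 3515. With the pool as a replicate block the counts were 4551 against the non-parietal clusters, 711 against cluster 8 and 3507 in the other dataset, and with plate as a block the interaction had 66.

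The mitochondrial share of cluster 1 was 19.3% with protein-coding genes alone. The difference between pools was 0.933 points with plate means and 1.48 with summed UMIs, both with an exact permutation p over 0.05. Detected genes, 3151 at 10000 UMIs, were 4601 at 20000, 2366.5 at 5000 nuclear UMIs and 6457 unthinned. Of values for single genes, 1770 stayed on their side of the threshold and 36 crossed it. Plain totals ended the calls of *Atp1b1*, *Slc12a2*, *Polrmt*, *Tefm*, *Sdhd* and *Suclg1*. The causes were not tested. *Pthlh* was above cluster 8 by 0.67, not called, without pool K and with plates as the unit. Removing mitochondrial genes from counts and totals in the contrast with cluster 8, and further fits of the contrast without them, were chosen after seeing the data. With 2 pools, differences between mice are barely sampled, and sums of few UMIs are imprecise.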

Other observations

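Genes of acid vesicles and lysosomes, not described above, were higher in cluster 1 than in non-parietal cells in 6 of 16 tested cases and lower in 2, with a median log2 fold change of 0.86. Genes of mitochondrial import and folding were higher in 8 of 20 cases and lower in none, with a median of 0.89. Against cluster 8, no gene of either list was called.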
